A study of Mus musculus with 24 samples.

Results

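Whole lung of Rag-1 null mice was compared 1 day after lipopolysaccharide (LPS) with untreated Rag-1 null lung, using 6 of the 24 Illumina beadchips of the series. Every sample was whole lung from a male C57BL/6 mouse of 6 to 8 weeks. Both groups compared shared the Rag-1 null genotype, and their labels differed only in treatment. Each group also kept its own position on the beadchips, so position and treatment cannot be told apart. The LPS group held 3 arrays (LPS 1d, Rag-1 null) and the control group held 3 arrays with no time given. They were chosen by their labels, with all probes kept. The other 18 arrays were Rag-1 null lung at LPS day 4 and day 10 and wild type lung under control conditions and at LPS day 1, 4 and 10, with 3 arrays in each group. Their spread entered the shared error estimate, and the wild type groups served to test where the Rag-1 null response differed. No source used here gives the route or dose of LPS, the hour of collection or how many animals each sample holds. Nothing in the labels says that replicates came from separate animals, so the p-values reflect the spread among these samples alone, part or all of it possibly technical.

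LPS, a component of the outer membrane of Gram-negative bacteria, is bound by CD14 and by the TLR4 and MD-2 receptor complex. One signalling branch from that receptor activates NF-kB, which drives chemokine, cytokine and acute phase genes together with its own inhibitors. Another leads to type I interferon and the genes that interferon induces. In the lung the chemokines draw neutrophils and then monocytes into the air spaces. RAG1 cuts the antigen receptor loci, so mice without it make no mature T or B lymphocytes, and the cells that answer LPS in them are epithelium, endothelium, stroma, myeloid cells and innate lymphoid cells including NK cells.

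Levels below are normalized log2 intensities, and an offset of 16 added before the log keeps the dimmest probes near 4, which understates the folds of dim genes. A gene is represented by its brightest probe, and it is called risen or fallen where limma's adjusted p was below 0.05. The 6 arrays detected 10410 to 11518 of 24046 probes with median signals of 31.4 to 35.8, and replicates of these groups correlated at 0.986 to 0.991 across probes. The targeted gene gave no check of the labels: Rag1 read 4.52, 4.76 and 4.48 in control and 4.70, 4.64 and 4.50 after LPS, and wild type control lung was no brighter at 4.37, 4.42 and 4.69. The lymphocyte markers Cd3e and Cd79b were close to the floor of the scale. Cd3e, a subunit of the T cell receptor complex, read 4.38, 4.36 and 4.44 in control and 4.39, 4.61 and 4.36 after LPS, while wild type control lung averaged 6.24. Cd79b, a subunit of the B cell receptor, read 4.99, 5.0 and 4.97 in control and 4.97, 5.11 and 4.98 after LPS, against 7.30 in wild type control. Lung markers were present: Sftpc of alveolar type 2 cells and Scgb1a1 of club cells lay at the top of the scale in control.

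In Rag-1 null lung 1 day after LPS, 854 of 9605 genes rose (8.89%) and 1043 fell (10.9%), together 19.8%, while the median change over all genes was -0.03 on the log2 scale. The rises were the larger: 337 genes rose 2-fold or more, 106 rose 4-fold or more and 13 rose 16-fold or more, whereas 275 fell 2-fold or more and 21 fell 4-fold or more. The 15 largest rises were chemokines, interleukin 1, acute phase proteins, the protease inhibitor Timp1, the metallothionein Mt2 and the amino acid oxidase Il4i1. Non-overlapping groups were common, since all 3 LPS arrays lay above all 3 control arrays in 2081 genes (21.7%) and below them in 2496 (26%), so such a separation alone marks little. By probe, 2287 of 13544 passed (16.9%), 1050 higher (7.75%) and 1237 lower (9.13%), of which 2277 (99.6%) moved in 1 direction on all 3 slides. Leaving out LPS replicate 2 reduced the probes that passed to 1468. Fitting the 6 compared arrays alone raised them to 4319, fitting without the wild type LPS day 1 group gave 3445, and array weights gave 4906, so the counts of risen and fallen genes are counts under a wide shared error.

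**Figure D1:**
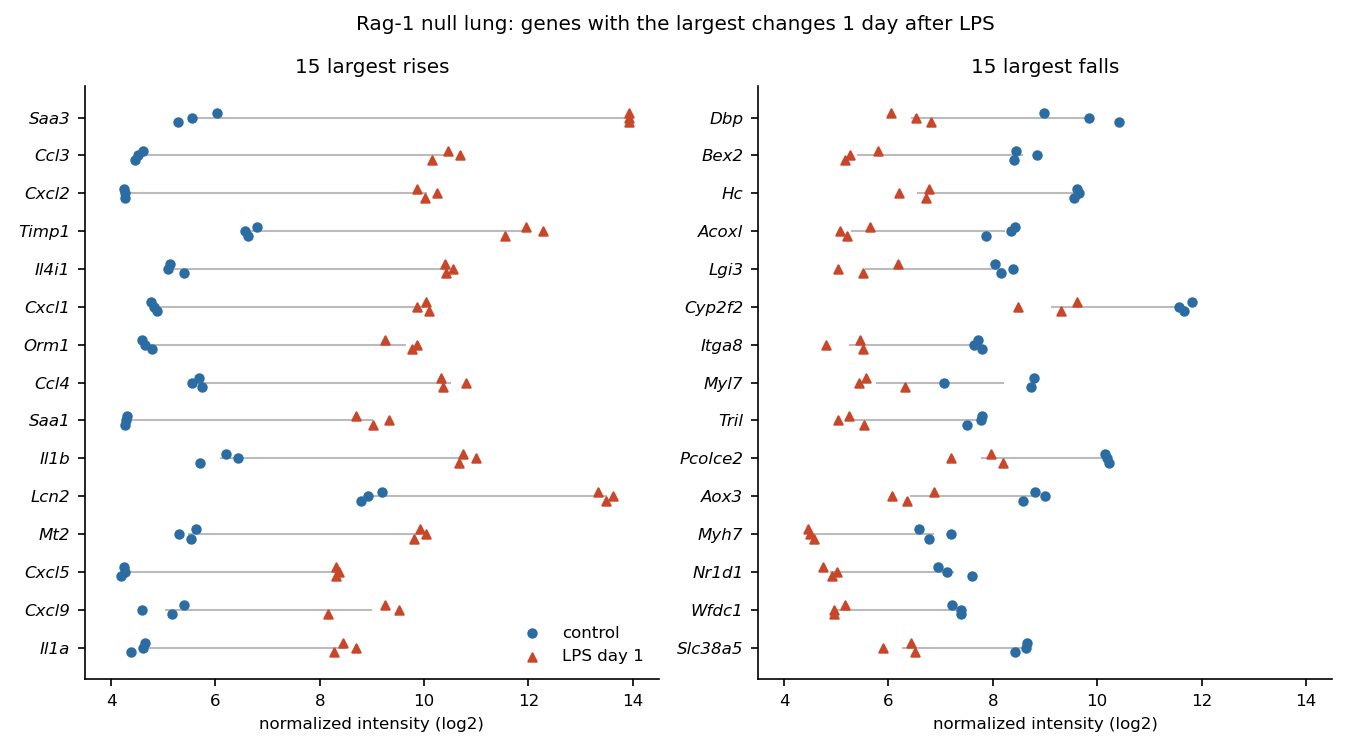
Normalized log2 intensity (x axis) on each of the 3 control arrays (circles) and 3 LPS day 1 arrays (triangles) for the 15 genes with the largest rise (left) and the 15 with the largest fall (right), with a line between the group means. In all 30 genes the groups do not overlap, and the control values of Dbp and Myl7 are the most spread.

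Chemokines that attract neutrophils held several of the largest rises. Cxcl2, a ligand of the neutrophil receptor CXCR2, read 4.25, 4.26 and 4.26 in control and 9.87, 10.24 and 10.02 after LPS. It was not above background on any control array, so its rise is given as a bound of at least 44.6-fold against the dimmest detected signal of those arrays (log2 change 5.79 ± 0.50 SE, adjusted p = 3.61e-08). Cxcl1, another CXCR2 ligand, moved from 4.76, 4.83 and 4.89 to 10.03, 9.87 and 10.09, a 36.0-fold rise (adjusted p = 3.13e-07). Cxcl5, an epithelial CXCR2 ligand, went from 4.24, 4.27 and 4.20, all not above background, to 8.31, 8.37 and 8.32, a rise of at least 13.6-fold (adjusted p = 1.68e-06). Each group was tight and far from the other in all of these ligands. The receptor itself followed with a smaller change, as Cxcr2 rose 4.87-fold from 4.60, 4.91 and 4.80 to 7.15, 7.12 and 6.90. Of 9 measured neutrophil-attracting chemokines and receptors 5 rose and 1 fell. The fallen member, chosen after its value was seen, was Cxcl15 (lungkine), made by lung epithelium, with a log2 change of -1.22, and its call was lost whichever of the 6 arrays was left out.

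The promoters of Cxcl2 and Cxcl1 are shown because both hold an NF-kB motif (GGGA, any 2 bases, TTCC) in the 250 bases before the start site, as taken from RefSeq on GRCm38.p6. The windows are chr5:90903649-90903898 for Cxcl2 and chr5:90890995-90891244 for Cxcl1, both on the plus strand, and the capitals mark overlapping matches of the motif on both strands.
Cxcl2: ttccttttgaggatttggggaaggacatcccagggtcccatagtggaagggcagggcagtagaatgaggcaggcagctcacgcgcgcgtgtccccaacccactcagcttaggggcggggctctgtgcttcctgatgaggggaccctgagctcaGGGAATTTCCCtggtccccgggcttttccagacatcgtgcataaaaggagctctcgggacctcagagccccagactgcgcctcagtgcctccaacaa
Cxcl1: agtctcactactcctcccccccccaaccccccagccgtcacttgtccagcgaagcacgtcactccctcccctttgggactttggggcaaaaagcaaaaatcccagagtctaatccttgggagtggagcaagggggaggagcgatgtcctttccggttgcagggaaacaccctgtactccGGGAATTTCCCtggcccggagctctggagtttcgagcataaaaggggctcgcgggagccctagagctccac
The match begins 97 bases before the start site in Cxcl2 and 71 bases before it in Cxcl1, and the capitals hold the same letters in both. Searched on both strands over windows of 300 bases, of which 50 lie after the start site, the motif was in 441 of 27025 genes with a promoter in the table (1.63%). It was in 26 of 676 genes that rose (3.85%), in 11 of 837 that fell (1.31%) and in 133 of 7783 tested genes (1.71%). Of the 15 largest rises 12 had a promoter in the table, and Cxcl2 and Cxcl1 were the 2 that held it. A match describes letters and is not evidence of binding.

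Among chemokines for monocytes, dendritic cells and lymphocytes, rises outnumbered falls. Of 30 measured, 16 rose (53.3%) and 3 fell (10%), against 8.89% and 10.9% of all genes. The median log2 change was 1.01 against -0.03 over all genes. Ccl3, a chemokine for monocytes, went from 4.61, 4.51 and 4.46 to 10.46, 10.68 and 10.16, a 60.0-fold rise (log2 change 5.91 ± 0.48 SE, adjusted p = 1.46e-08). Ccl4, a related chemokine, rose 28.4-fold from 5.69, 5.56 and 5.75 to 10.33, 10.80 and 10.36. Ccl9, a CCR1 ligand, went from 6.18, 6.12 and 6.25 to 9.32, 9.05 and 9.08 (7.81-fold, adjusted p = 2.29e-10). Ccl17, a CCR4 ligand made by dendritic cells, rose 5.48-fold from 6.10, 6.06 and 6.10 to 8.60, 8.33 and 8.68. A lymphoid homing chemokine fell: Ccl21a, a CCR7 ligand made by lymphatic endothelium and stroma, dropped from 8.10, 8.10 and 8.07 to 6.76, 6.23 and 6.72 (2.87-fold lower, adjusted p = 9.98e-08). The probe named Ccl21b fell 2.99-fold, and the near-identical Ccl21 genes cannot be separated with confidence by these probes. Of the 3 fallen members the others, chosen after their values were seen, were Cx3cl1 (-0.77) and Cxcl12 (-0.60). Without control replicate 2 the fallen members numbered 1.

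Of 32 measured cytokines and cytokine receptors, 20 rose (62.5%) and 1 fell. Il1b, the secreted interleukin 1 that inflammasomes process, went from 6.20, 6.43 and 5.71 to 10.75, 11 and 10.67, a 25.9-fold rise (adjusted p = 2.77e-06). Il1a, its cell-associated relative, rose 15.1-fold from 4.66, 4.61 and 4.38 to 8.45, 8.69 and 8.27. The decoy receptor that binds both, Il1r2, went from 4.37, 4.30 and 4.34, not above background, to 7.81, 8.14 and 8.78, at least 12.8-fold higher (adjusted p = 1.29e-07). Its LPS arrays were more spread than those of the ligands and all lay above control. Tnf read 4.23, 4.32 and 4.28 in control and 6.44, 6.53 and 6.49 after LPS, at least 3.79-fold higher. Il6, an inducer of acute phase genes, read 4.40, 4.34 and 4.35 and then 6.00, 6.31 and 6.25, at least 3.09-fold higher (adjusted p = 0.00814). Ebi3, a subunit of interleukin 27, rose 4.69-fold and Tnfrsf9, the costimulatory receptor 4-1BB, at least 2.69-fold. Ifng, the interferon of NK and T cells, stayed below background on all 6 arrays, at 4.31, 4.31 and 4.24 and at 4.61, 4.51 and 4.30. Il10, an anti-inflammatory cytokine, was also below background on all 6 arrays, at 4.36, 4.32 and 4.19 and at 4.38, 4.42 and 4.30. The member that fell, chosen after its value was seen, was Il18 (-0.67), whose call was lost without any 1 of control replicates 1 and 2 and LPS replicates 2 and 3.

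Many sensors of bacterial products rose. Of 27 measured LPS sensing genes 14 rose (51.9%) and 0 fell. Cd14, the LPS co-receptor, went from 6.68, 6.34 and 6.67 to 10.17, 10.41 and 10.44, a 13.7-fold rise (adjusted p = 9.98e-08). Tlr2, the receptor for bacterial lipoproteins, rose 5.59-fold from 7.10, 7.25 and 7.01 to 9.64, 9.77 and 9.40, and Tlr13, which in mice recognises bacterial ribosomal RNA, rose 3.72-fold from 4.92, 4.72 and 4.76 to 6.63, 6.77 and 6.69. Tlr4 itself rose 1.69-fold, from 6.00, 5.91 and 5.69 to 6.73, 6.60 and 6.55 (adjusted p = 0.00164). Clec4e (Mincle), a C-type lectin that signals through an immunoreceptor adaptor, was at least 10.3-fold higher. A TLR4 accessory protein outside the list of 27 moved the other way. Tril, which binds TLR4 and LPS, dropped from 7.79, 7.78 and 7.50 to 5.25, 5.04 and 5.54 (5.33-fold lower, adjusted p = 2.46e-07), and it was among the 15 largest falls.

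Many inhibitors of NF-kB signalling rose. Of 18 measured NF-kB subunits and feedback genes, 13 rose (72.2%) and 0 fell, with a median log2 change of 1.41. Irak3, which blocks IRAK kinases below the Toll-like receptors, went from 5.94, 5.99 and 6.14 to 9.01, 9.29 and 8.94 (8.35-fold, adjusted p = 1.35e-08). Tnfaip3 (A20), a ubiquitin-editing inhibitor, rose 7.67-fold from 6.13, 6.06 and 5.90 to 8.70, 9.15 and 9.05. Socs3, which limits STAT3 signalling, rose 7.41-fold from 7.45, 7.46 and 7.38 to 10.31, 10.47 and 10.18. In all of these the lowest LPS array stood more than 2 log2 units above the highest control array. Among immediate early transcription factors 7 of 20 rose (35%), Batf 2.69-fold and Fosl2 2.11-fold, and the count was 4 without control replicate 3 and 3 without LPS replicate 2.

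Many interferon-induced genes rose. In the type I interferon list 12 of 24 measured members rose (50%) and 0 fell, and 21 of 24 had all LPS arrays above all control arrays, against 21.7% of all genes. Rsad2 (viperin), an antiviral enzyme, went from 5.38, 5.02 and 5.33 to 8.19, 8.39 and 8.00, a 7.72-fold rise (adjusted p = 1.92e-05). Irf7, the transcription factor that amplifies interferon production, rose 3.66-fold from 5.03, 4.97 and 4.84 to 7.02, 6.88 and 6.56. Ifit2, which binds viral RNA, rose 3.38-fold from 6.35, 6.46 and 6.37 to 8.29, 8.26 and 7.91, and Ifitm3, a membrane protein that blocks virus entry, rose 1.98-fold. Mx2, an antiviral GTPase, read 4.52, 4.41 and 4.58 in control and 5.50, 5.02 and 4.92 after LPS and did not pass (adjusted p = 0.061). In the same promoter windows the interferon-response motif (GAAA, any 2 bases, GAAA, on both strands) was in 57 of 676 genes that rose (8.43%). It was in 31 of 837 that fell (3.7%), in 302 of 7783 tested genes (3.88%) and in 3.99% of all genes. In this list it was in 11 of 18 genes with a promoter in the table (61.1%). That share counts members whether they rose or not, in a list fixed by interferon response, so it does not describe the response seen here.

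The interferon gamma list held 11 risen members of 26 (42.3%) and 0 fallen, although Ifng was below background. Cxcl9, a CXCR3 ligand, was its largest rise, from 5.39, 4.60 and 5.17 to 9.26, 9.52 and 8.16 (15.2-fold, adjusted p = 5.61e-07), with LPS replicate 3 lowest. Cxcl10, another CXCR3 ligand that type I interferon also induces, went from 4.36, 4.23 and 4.39 to 7.90, 8.09 and 8.02, at least 10.8-fold higher. Cd274 (PD-L1), which restrains T cells, rose 5.40-fold from 7.19, 7.20 and 7.03 to 9.71, 9.87 and 9.13. Psmb10, a catalytic subunit of the immunoproteasome, rose 1.80-fold. The risen members numbered 7 without control replicate 3 and 6 without LPS replicate 2. In the proteasome list 7 of 30 rose (23.3%) and 0 fell, with small changes such as Psme1 at 1.45-fold and Psmc4 at 1.41-fold. That count fell to 3 without any 1 of control replicates 1 and 2 and LPS replicates 2 and 3, and it was 20 when the compared arrays were fitted alone.

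Acute phase proteins had the largest share of risen members of any list, 17 of 21 (81%), with 0 fallen. Saa3, the serum amyloid A made outside the liver, read 6.03, 5.56 and 5.28 in control and sat at the ceiling of the scale at 13.93 on all 3 LPS arrays. On scanner signals, before normalization, it went from 79.8, 57.6 and 53.9 to 11689.1, 17834.6 and 16250.4, which is 239-fold. Orm1, a plasma acute phase glycoprotein, rose 30.9-fold from 4.59, 4.65 and 4.79 to 9.25, 9.86 and 9.77. Lcn2, which withholds iron from bacteria by binding siderophores, rose 22.8-fold from 9.20, 8.92 and 8.80 to 13.33, 13.63 and 13.49. Saa1, at 4.31, 4.28 and 4.27 in control and not above background there, reached 8.69, 9.32 and 9.02, at least 21.8-fold higher, and Saa2 was at least 2.99-fold higher. Saa1 and Saa2 are near-identical, so their probes may share signal.

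Many neutrophil genes rose. Of 29 measured, 18 rose (62.1%) and 0 fell, with a median log2 change of 1.04. Their summed linear level was 3033 to 3264 on the control arrays and 26457 to 31611 on the LPS arrays. That sum is weighted towards the brightest members, among them Lcn2 (mean 13.48 after LPS), which is also in the acute phase list. In whole lung, more cells of a type and more RNA per cell cannot be told apart. S100a8, an abundant calcium-binding protein of neutrophils, went from 9.33, 9.44 and 9.42 to 12.42, 12.84 and 12.70 (9.60-fold, adjusted p = 0.00194). Clec4d, a lectin receptor of myeloid cells, rose 14.8-fold from 4.86, 5.04 and 4.99 to 8.58, 8.90 and 9.07. Ncf4, a subunit of the phagocyte NADPH oxidase, rose 6.64-fold from 5.26, 4.89 and 5.28 to 7.50, 7.98 and 8.15. The granule genes made in marrow precursors, named after their values were seen, gave other values: the log2 changes of Elane, Mpo and Ltf were -0.04, 0.07 and -0.01, and none of them passed.

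Monocyte and macrophage genes moved less evenly, with 10 of 25 risen (40%) and 2 fallen. Fcgr3 and Fcgr4, activating receptors for immunoglobulin G, rose 3.29-fold and 3.24-fold. Adgre1 (F4/80), a macrophage surface receptor, rose 2.74-fold from 7.09, 7.06 and 6.93 to 8.27, 8.54 and 8.64. Aif1, an actin-binding protein of macrophages outside that list, rose 2.64-fold from 5.51, 5.43 and 5.75 to 7.15, 6.81 and 6.95. Neither gene had overlapping groups. The fallen members, chosen after their values were seen, were the mannose receptor Mrc1 (-0.64) and the lysozyme gene Lyz1 (-1.24). The risen members numbered 6 without control replicate 2. Genes of alternative activation split, with 3 of 16 risen and 3 fallen. Arg1, which breaks down arginine, went from 4.25, 4.28 and 4.38, not above background, to 6.72, 6.86 and 6.97, at least 4.88-fold higher (adjusted p = 7.35e-04). Mgl2, a lectin of dendritic cells and macrophages, dropped from 6.54, 6.31 and 6.49 to 5.40, 4.92 and 4.73 (2.70-fold lower). Without control replicate 3 the fallen members of that list numbered 1.

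**Figure D2:**
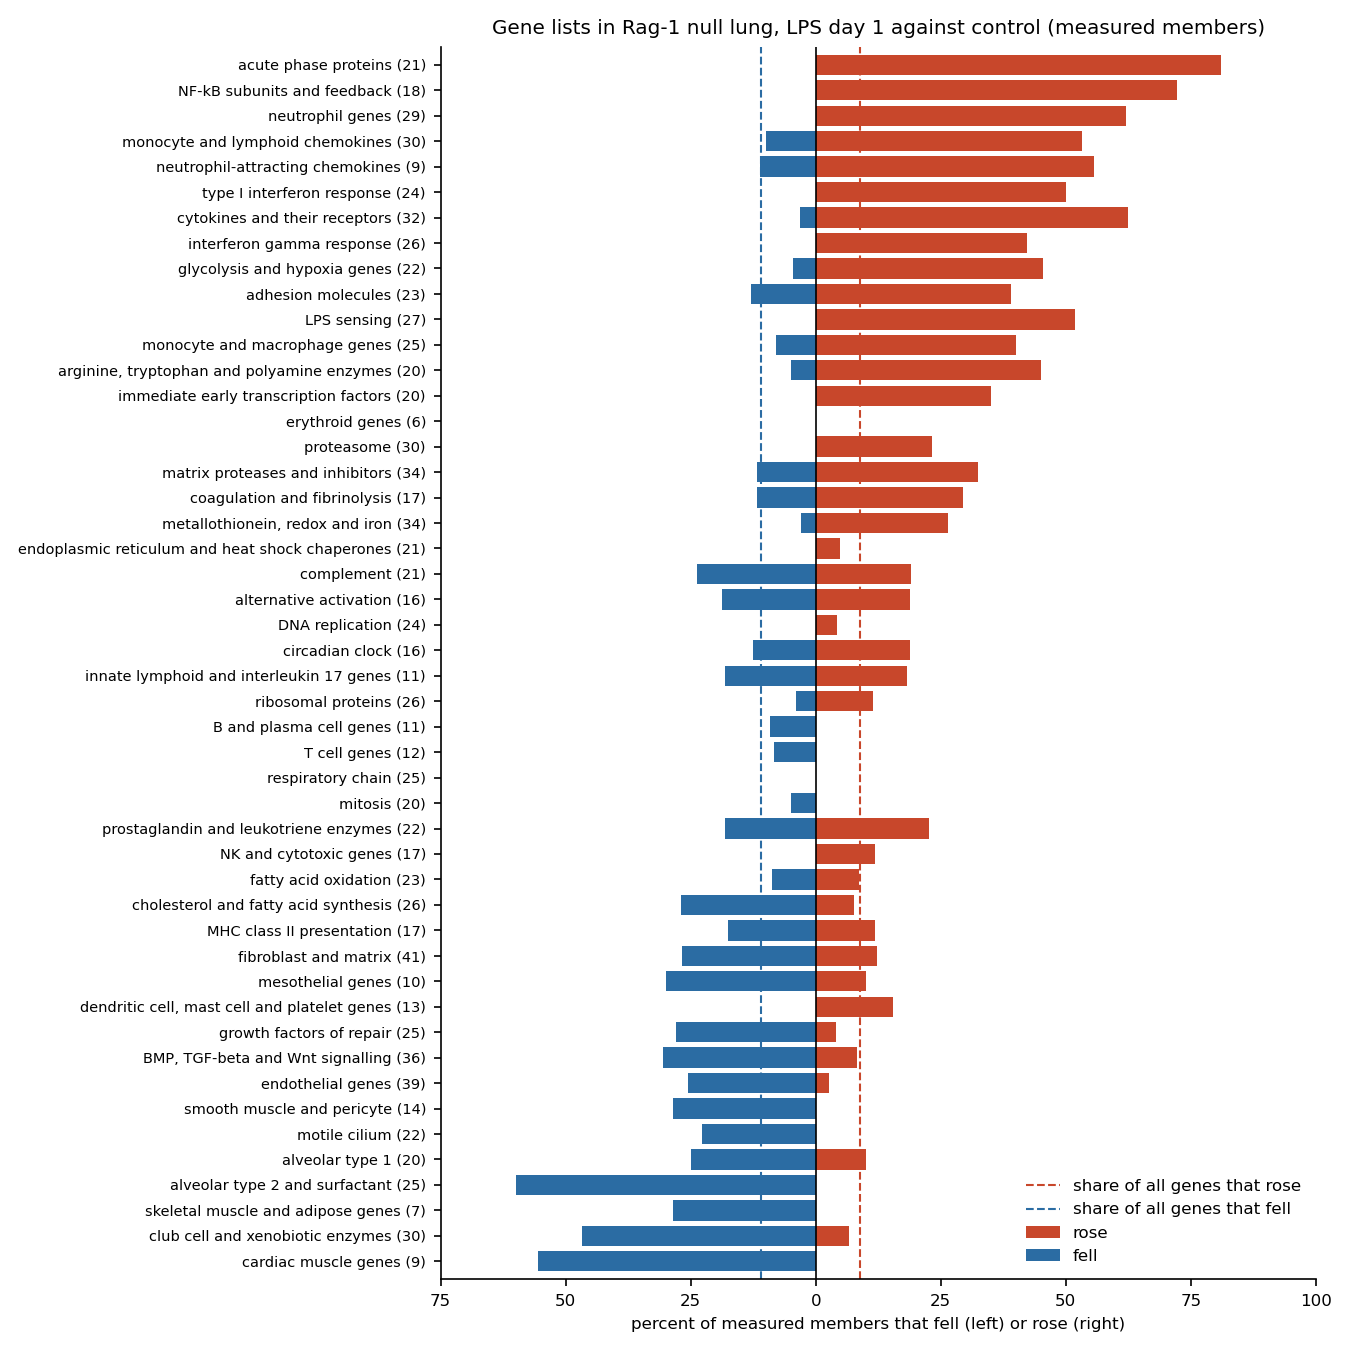
Percent of measured members that rose (right, red) or fell (left, blue) at LPS day 1 in Rag-1 null lung for 48 gene lists, ordered by median change, with the number of measured members in brackets and dashed lines at the shares of all genes (8.89% risen, 10.9% fallen). Acute phase proteins reach 81% risen and the alveolar type 2 list 60% fallen, while the respiratory chain list has 0 of either.

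Some enzymes of amino acid metabolism and glycolysis rose. Il4i1, a secreted L-amino acid oxidase that consumes phenylalanine and tryptophan, went from 5.14, 5.09 and 5.40 to 10.41, 10.55 and 10.42, a 38.0-fold rise (adjusted p = 1.37e-09). Arg2, the mitochondrial arginase, rose 5.94-fold from 5.60, 5.73 and 5.33 to 7.89, 8.03 and 8.44. Gch1, which starts the synthesis of the nitric oxide synthase cofactor tetrahydrobiopterin, rose 3.43-fold, and Slc7a5, a large amino acid transporter, 2.77-fold. In that list 9 of 20 rose (45%). Of 22 glycolysis and hypoxia genes 10 rose (45.5%), led by the hexose transporters Slc2a6 (5.39-fold, from 5.37, 5.35 and 5.22 to 7.65, 7.88 and 7.70) and Slc2a1 (2.78-fold, from 5.98, 5.88 and 6.24 to 7.21, 7.60 and 7.70). The respiratory chain list had 0 risen and 0 fallen of 25 members, with a median log2 change of -0.03, equal to that of all genes. Ch25h, which makes the antiviral oxysterol 25-hydroxycholesterol, rose 12.7-fold from 5.91, 5.68 and 5.51 to 9.20, 9.41 and 9.49 while lipid synthesis genes of the same list fell, Scd1 3.14-fold and Acly 1.59-fold. In that list 2 of 26 rose and 7 fell (26.9%).

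Metal, redox and protease defence genes rose in part. Mt2, a zinc-binding metallothionein, went from 5.63, 5.30 and 5.53 to 9.93, 10.04 and 9.81 (21.7-fold, adjusted p = 9.43e-09), and Mt1 rose 6.59-fold from 10.07, 9.60 and 9.87 to 12.70, 12.70 and 12.30. Sod2, the mitochondrial superoxide dismutase, rose 5.38-fold and Slc11a1 (Nramp1), which pumps metal ions out of phagosomes, 3.83-fold. These came from a list with 9 of 34 risen (26.5%). Timp1, an inhibitor of matrix metalloproteinases, rose 38.7-fold from 6.79, 6.56 and 6.62 to 11.96, 12.28 and 11.55. Slpi, an inhibitor of neutrophil elastase, rose 6.36-fold from 8.35, 8.29 and 8.20 to 10.92, 10.95 and 10.97, and Serpina3n, a serine protease inhibitor, 7.06-fold. In the protease list 11 of 34 rose (32.4%) and 4 fell (11.8%), against 8.89% and 10.9% of all genes.

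Complement and coagulation genes moved in both directions. Cfb, the protease of the alternative complement pathway, went from 7.53, 7.25 and 7.16 to 10.98, 10.91 and 11.15 (13-fold, adjusted p = 3.84e-08). Hc, which encodes complement C5, dropped from 9.61, 9.66 and 9.56 to 6.78, 6.20 and 6.71, 8.25-fold lower (adjusted p = 5.56e-07), and was among the 3 largest falls. Of 21 complement genes 4 rose and 5 fell, and single arrays decided most of these calls: the risen members numbered 1 without control replicate 1, control replicate 2 or LPS replicate 3, and 2 without any 1 of the others, while the fallen numbered 1 without LPS replicate 2 and 2 without any control array. F10, the zymogen of coagulation factor X, rose 6.85-fold from 5.23, 5.62 and 5.41 to 8.22, 8.35 and 8.01. Thbd (thrombomodulin), the endothelial anticoagulant receptor, read 10.91, 10.42 and 10.38 in control and 9.68, 9.28 and 9.76 after LPS, 2.00-fold lower (adjusted p = 2.01e-04). Plaur, the urokinase receptor, rose 2.78-fold and Plat, the tissue plasminogen activator, 2.15-fold. Of 17 coagulation genes 5 rose (29.4%) and 2 fell (11.8%), against 8.89% and 10.9% of all genes. The fallen coagulation genes numbered 1 without control replicate 1 or 3 or LPS replicate 2 or 3.

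Many genes of the alveolar epithelium fell. In the alveolar type 2 list 15 of 25 fell (60%, against 10.9% of all genes) and 0 rose, and the summed linear level was 45958 to 49281 on control arrays and 22380 to 30177 on LPS arrays. Sftpc, surfactant protein C, stood at the ceiling of 13.93 on all 3 control arrays and at 12.91, 11.98 and 12.59 after LPS (2.70-fold lower, adjusted p = 3.63e-05). On scanner signals it went from 15041.8, 15564.8 and 20844.0 to 6856.4, 4521.0 and 6342.3, 2.92-fold lower. Etv5, a transcription factor that maintains type 2 cells, dropped from 6.88, 7.30 and 7.26 to 5.98, 5.46 and 5.71 (2.70-fold lower), and Abca3, the lipid pump of lamellar bodies, from 6.65, 6.61 and 6.62 to 5.71, 5.39 and 5.72 (2.03-fold lower). LPS replicate 2 was lowest in Sftpc, Etv5, Abca3 and Hc. Lgi3 fell 6.12-fold from 8.04, 8.38 and 8.15 to 6.18, 5.03 and 5.52, again with LPS replicate 2 lowest.

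Many club cell genes and detoxifying enzymes fell. In that list 14 of 30 fell (46.7%) and 2 rose, with a median log2 change of -1.27. Cyp2f2, a cytochrome P450 of club cells, dropped from 11.81, 11.57 and 11.66 to 9.61, 8.49 and 9.30 (5.84-fold lower, adjusted p = 3.79e-06). Aox3, an aldehyde oxidase, dropped from 8.81, 9.0 and 8.58 to 6.88, 6.07 and 6.36 (5.14-fold lower). Ephx1, an epoxide hydrolase that detoxifies reactive compounds, dropped from 8.73, 9.12 and 9.29 to 7.21, 6.39 and 6.71 (4.84-fold lower). Every LPS array lay more than 1 log2 unit below every control array in these enzymes. Scgb1a1, the main secreted protein of club cells, read 13.63 on all control arrays and 13.63, 13.33 and 13.33 after LPS, and did not pass (adjusted p = 0.456). Its scanner signals were 13100.4, 12860.1 and 12452.8 in control and 10611.8, 12022.6 and 11472.1 after LPS, near the top of the scale where differences are compressed. The risen members, chosen after their values were seen, were Pigr (1.99), the receptor that carries immunoglobulin A across epithelium, and Cyp1b1 (1.58).

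A smaller share of cilium and alveolar type 1 genes fell. Tppp3, a tubulin-binding protein abundant in ciliated cells, dropped from 8.78, 8.60 and 8.79 to 6.61, 6.56 and 6.99 (4.02-fold lower, adjusted p = 2.22e-08). Dnaic1, a dynein arm component, dropped from 6.08, 6.04 and 6.03 to 5.16, 4.89 and 5.20 (1.95-fold lower), although another probe of the gene gave -0.28 and did not pass. In the cilium list 5 of 22 fell (22.7%, against 10.9% of all genes) and 0 rose. All LPS arrays lay below all control arrays in 13 of 22, against 26% of all genes. The fallen members numbered 3 without control replicate 1 or 3 or LPS replicate 2. The compared arrays fitted alone gave 18. In the alveolar type 1 list 5 of 20 fell (25%) and 2 rose, and 3 fell without LPS replicate 2. Limch1, a regulator of actomyosin, dropped from 10.73, 10.68 and 10.70 to 9.90, 9.46 and 9.61 (2.06-fold lower), and Cav1 (caveolin 1), which coats membrane invaginations in type 1 cells and endothelium, from 11.67, 11.88 and 11.70 to 10.82, 10.64 and 11.05 (1.89-fold lower). Emp2, a tetraspan membrane protein of type 1 cells, fell 1.65-fold, while Icam1, a leukocyte adhesion ligand also expressed there, rose 2.04-fold from 10.47, 10.35 and 10.65 to 11.52, 11.61 and 11.43.

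Some endothelial genes fell, and among adhesion molecules rises outnumbered falls. Of 39 endothelial genes 10 fell (25.6%) and 1 rose, and 21 fell when the compared arrays were fitted alone. Aplnr, the apelin receptor, dropped from 6.64, 7.37 and 6.83 to 5.25, 5.17 and 4.58 (3.86-fold lower, adjusted p = 4.09e-06). Cavin2, a coat protein of caveolae, dropped from 11.06, 11.29 and 11.31 to 9.98, 9.44 and 9.92 (2.72-fold lower). Ednrb, an endothelin receptor, fell 3.34-fold on its brightest probe, and another probe gave -0.56 and did not pass. Pecam1 (CD31), a general endothelial marker, read 8.64, 9.10 and 9.09 in control and 8.54, 8.60 and 8.66 after LPS, and its groups overlapped narrowly (adjusted p = 0.579). Of 23 adhesion molecules 9 rose (39.1%), 3 fell (13%) and 11 did not pass, against 8.89% risen and 10.9% fallen of all genes. Selp (P-selectin), which starts leukocyte rolling, went from 4.72, 4.77 and 4.72 to 7.41, 7.48 and 6.93 (5.81-fold, adjusted p = 2.51e-06). Its leukocyte ligand Selplg rose 2.22-fold, and Sele (E-selectin) went from 4.36, 4.34 and 4.28, not above background, to 4.94, 5.22 and 5.35, at least 1.52-fold higher.

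Stromal genes moved in both directions, and most did not pass. Itga8, an integrin subunit of lung fibroblasts, dropped from 7.71, 7.64 and 7.79 to 5.46, 4.81 and 5.51 (5.48-fold lower, adjusted p = 4.49e-06). Pcolce2, which enhances procollagen processing, dropped from 10.15, 10.18 and 10.23 to 7.96, 7.19 and 8.20 (5.31-fold lower). Ogn, a small leucine-rich proteoglycan of matrix, and Tnxb, a tenascin, fell 3.30-fold and 2.84-fold. Lox, a collagen crosslinker, rose 3.00-fold from 8.15, 8.81 and 8.14 to 10.39, 9.88 and 9.59. Of 41 fibroblast and matrix genes 11 fell (26.8%) and 5 rose (12.2%), against 10.9% and 8.89% of all genes. Without control replicate 2, 7 fell, while 3 rose without control replicate 3 or LPS replicate 1 and 2 without LPS replicate 2. In BMP, TGF-beta and Wnt signalling 11 of 36 fell (30.6%) and 3 rose (8.33%). Wnt2, a ligand of lung mesenchyme, dropped from 6.57, 6.69 and 6.67 to 5.04, 5.09 and 5.36 (2.79-fold lower), and Bmp4 fell 2.08-fold. Fst (follistatin), which binds and neutralises activins, rose 3.28-fold from 4.74, 4.65 and 4.74 to 6.66, 6.41 and 6.20. The risen members of this list numbered 1 without control replicate 2 or 3 or LPS replicate 1 or 2. Of 25 growth factors of repair 7 fell (28%) and 1 rose. Fgf1, a fibroblast growth factor, fell 3.01-fold, and Angptl4, an inhibitor of lipoprotein lipase, rose 4.65-fold from 7.24, 7.31 and 6.66 to 9.28, 9.46 and 9.13. The fallen members numbered 4 without control replicate 2 or 3 or LPS replicate 2.

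Output genes of the circadian clock held some of the largest falls. Dbp, a transcription factor driven by CLOCK and BMAL1, dropped from 8.99, 9.84 and 10.42 to 6.04, 6.52 and 6.81, 9.85-fold lower and the largest fall of any named gene (log2 change -3.30 ± 0.52 SE, adjusted p = 8.96e-05). Nr1d1 (REV-ERB alpha), a repressor within the clock, dropped from 6.95, 7.13 and 7.61 to 4.74, 5.01 and 4.92 (5.08-fold lower, adjusted p = 2.63e-06). Nfil3, a repressor that binds the same sites as DBP, went the other way, from 6.46, 5.67 and 5.90 to 7.91, 8.46 and 8.14 (4.47-fold higher). Bhlhe40, another repressor, rose 1.95-fold from 8.14, 8.13 and 8.42 to 9.05, 9.30 and 9.24. Of 16 clock genes 3 rose, 2 fell and 11 did not pass, against 8.89% risen and 10.9% fallen of all genes. The share of the list that fell was thus close to that of all genes, and the share that rose was larger but rests on 3 genes. All LPS arrays lay above all control arrays in 5 of the 16 and below them in 6, against 21.7% and 26% of all genes. Among those that did not pass, the core genes Clock and Per1, named after their values were seen, had log2 changes of 0.01 and -0.00. They do not stand for the other members. Since the hour of collection is unknown here, a difference in hour and the effect of LPS cannot be told apart.

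Antigen presentation genes moved in both directions. Of 17 MHC class II genes 3 fell (17.6%) and 2 rose (11.8%), together 29.4% against 19.8% of all genes. H2-DMa, which loads peptides on class II molecules, dropped from 6.65, 6.92 and 6.92 to 6.25, 5.79 and 5.84 (1.83-fold lower, adjusted p = 0.00294), and H2-Eb1, a class II beta chain, from 9.62, 9.33 and 9.72 to 9.09, 8.45 and 8.31 (1.92-fold lower). Cd83, a marker of mature dendritic cells, rose 2.65-fold from 5.83, 5.83 and 5.96 to 7.49, 7.17 and 7.19, and the risen members numbered 1 without any single array other than LPS replicate 3. Ccr7, the receptor that guides dendritic cells to lymph nodes, rose 4.79-fold from 4.99, 4.81 and 5.12 to 7.64, 7.27 and 6.79, and Fscn1, an actin bundler of mature dendritic cells, 3.33-fold. In the NK list 2 of 17 rose (11.8%), Ccl5 2.94-fold and Xcl1 2.38-fold, both chemokines of cytotoxic cells. Xcl1 lost its call without control replicate 2 or LPS replicate 2. In the T cell list 0 of 12 rose and 1 fell (8.33%), Cd2 by 1.76-fold, an adhesion receptor that NK cells also carry. In the B and plasma cell list 0 of 11 rose and 1 fell (9.09%), Vpreb3 by 2.06-fold. The DNA replication list held 1 risen member of 24 (4.17%) and the mitosis list 1 fallen of 20 (5%). Of all genes 8.89% rose and 10.9% fell, so the NK, T cell, B cell, replication and mitosis counts lay near or below those shares.

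Heart muscle genes differed between the groups and among the control arrays. In that list 5 of 9 fell (55.6%) and 0 rose, with a median log2 change of -1.70, and the summed linear level was 3047, 919 and 3127 in control and 364, 294 and 540 after LPS. Control replicate 2 lay apart from the other controls and nearer to the LPS arrays. Myl7, an atrial myosin light chain, read 8.79, 7.07 and 8.73 in control and 5.56, 5.44 and 6.32 after LPS (5.37-fold lower, adjusted p = 0.0391), and its call was lost without any array other than control replicate 2. Myh7, a slow myosin heavy chain, was more even, from 6.58, 7.19 and 6.78 to 4.46, 4.49 and 4.57 (5.08-fold lower, adjusted p = 1.12e-06). The fallen members numbered 2 without control replicate 1, LPS replicate 1 or LPS replicate 3, and 1 without control replicate 3 or LPS replicate 2. The same control array was low in secreted proteins of the larger airways, chosen after their values were seen. Bpifa1, an antimicrobial airway protein, read 9.05, 4.29 and 9.17 in control and 4.41, 4.27 and 4.42 after LPS, Bpifb1 read 10.05, 4.80 and 9.52 and then 5.41, 6.05 and 6.04, and Scgb3a1 read 11.10, 5.35 and 10.70 and then 5.35, 6.85 and 7.51. None of these airway genes passed. Adipose and skeletal muscle genes followed the same arrays, with summed levels of 301, 94 and 314 in control and 56, 50 and 60 after LPS, and 2 of 7 fell, Cidec and Tnni2. The part of this tissue in the falls described above was not tested.

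**Figure D3:**
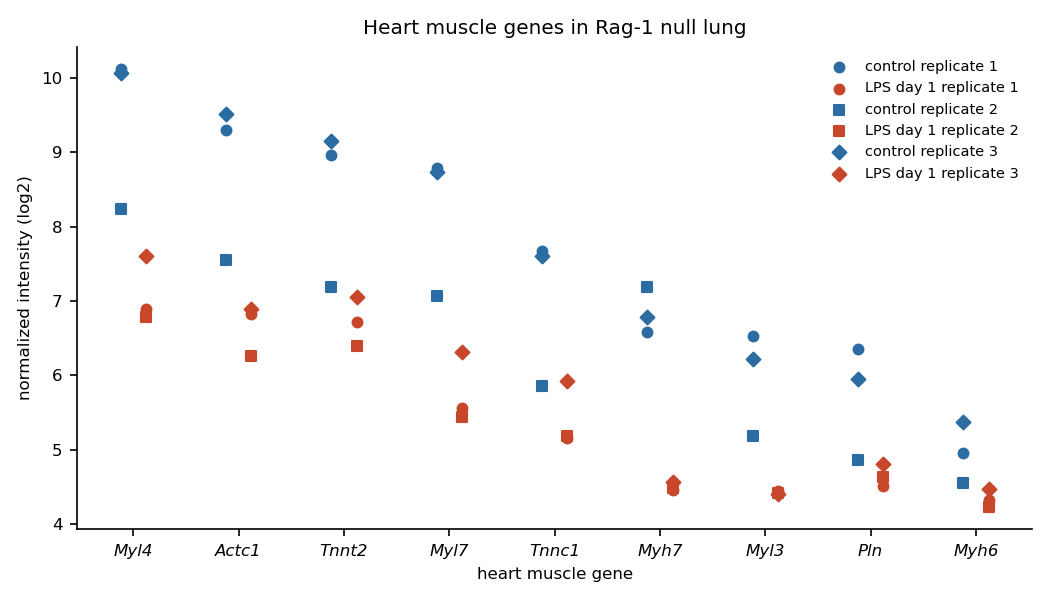
Normalized log2 intensity (y axis) of the 9 measured heart muscle genes on each control array (blue) and LPS day 1 array (red), with replicates 1, 2 and 3 as circles, squares and diamonds. Control replicate 2 lies below the other controls in 8 of the 9 genes and above them in Myh7.

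The response was set against that of wild type lung by testing the difference between the 2 LPS effects. That difference passed for 879 genes (9.15%), of which 448 were higher in Rag-1 null lung (4.66%) and 431 lower (4.49%). In wild type lung 4177 genes passed at day 1 (43.5%), of which 1883 rose (19.6%) and 2294 fell (23.9%). The wild type LPS day 1 arrays agreed less well with each other, with correlations of 0.858 to 0.969 and replicate 1 apart. By probe 1112 passed (8.21%), 568 of them higher (4.19%) and 544 lower (4.02%), and 2311 passed without that array, 731 without Rag-1 null control replicate 1 and 723 without Rag-1 null LPS replicate 1. With arrays only centred on the median 560 probes passed, 39.8% of them higher in Rag-1 null lung against 51.1% before. Values below are log2 differences of the 2 effects, and those without wild type LPS replicate 1 stand beside them.

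The difference passed for 11 of the 24 measured type I interferon genes, against 9.15% of all genes, and all 11 were lower in Rag-1 null lung. Irf7 (-0.54, adjusted p = 0.409) and Ifitm3 (-0.64, adjusted p = 0.148) were among those that did not pass. Rsad2 went from 5.25, 5.76 and 5.62 to 11.61, 12.23 and 12.07 in wild type, a log2 change of 6.43 against 2.95 in Rag-1 null lung, a difference of -3.48 (adjusted p = 7.44e-04), or -3.66 without wild type LPS replicate 1. Ifit2 went from 6.72, 6.20 and 6.35 to 10.54, 10.65 and 11.16 in wild type (difference -2.60, or -2.72). Mx2, which did not pass in Rag-1 null lung, went from 4.43, 4.40 and 4.35 to 7.78, 8.91 and 8.43 in wild type (difference -3.34, or -3.63). Some genes that rose in wild type lung stayed near the floor in Rag-1 null lung. Dio2, an enzyme that activates thyroid hormone, reached 8.81, 7.94 and 8.41 in wild type and 4.81, 4.69 and 4.80 in Rag-1 null lung (difference -3.79), and Il24, a cytokine of the interleukin 10 family, reached 6.89, 8.32 and 7.69 against 4.36, 4.37 and 4.32 (difference -3.22). The chemokine Ccl5 rose in both (difference -2.01). Of 32 cytokines and their receptors the difference passed for 8, all lower in Rag-1 null lung, against 9.15% of all genes. The probe named Sprr2e, for a cornified envelope protein with near-identical relatives, was below background on all 6 Rag-1 null arrays and reached 7.08, 7.12 and 7.06 in wild type (fitted difference -2.80). The probes of Il24 and Sprr2e were below background on all Rag-1 null arrays compared and on all wild type control arrays, and that of Dio2 on all wild type control arrays, so these fitted differences depend on the offset and are not exact.

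In the B and plasma cell list the difference passed for 6 of 11 members, all higher in Rag-1 null lung, against 9.15% of all genes. In wild type lung 10 of these 11 members fell, and 5 of the 11 were below background on all Rag-1 null arrays compared. In the macrophage, acute phase and endothelial lists it passed for a larger share than the 9.15% of all genes, though most members did not pass. The members that passed were 4 of 25 macrophage genes (all higher in Rag-1 null lung), 7 of 21 acute phase genes (6 higher and 1 lower) and 11 of 39 endothelial genes (9 higher and 2 lower). Saa3 (adjusted p = 0.244), Lcn2 (0.936), Fcgr4 (0.14) and Pecam1 (0.113) did not pass. Aif1 rose in Rag-1 null lung and fell in wild type, from 5.70, 5.77 and 5.47 to 4.69, 5.13 and 5.19 (difference 2.05, adjusted p = 4.79e-06, or 1.89 without wild type LPS replicate 1). Adgre1 went from 6.72, 7.01 and 7.17 to 7.30, 6.55 and 6.87 in wild type (difference 1.51, or 1.70). Saa1 rose in both and by more in Rag-1 null lung (difference 2.50, or 1.87). Saa2 gave a difference of 1.33, and in wild type lung it averaged 4.70 after LPS, above background on 2 of 3 arrays. The probes of Saa1 and Saa2 were below background on all control arrays of both genotypes, so these fitted differences are not exact. Clec1a, a C-type lectin of endothelium, read 7.32, 8.06 and 7.41 in Rag-1 null control and 7.84, 7.69 and 7.26 after LPS, with overlapping groups, whereas in wild type it dropped from 8.08, 8.31 and 7.78 to 5.22, 5.13 and 5.54 (difference 2.75). Limch1, Icam2 and Cavin2 fell in both genotypes and by less in Rag-1 null lung, with differences of 2.09, 1.62 and 1.48. Among genes that fell in Rag-1 null lung, Nr1d1 read 7.20, 6.68 and 6.44 in wild type control and 6.06, 7.30 and 6.83 after LPS, overlapping groups with a difference of -2.30, or -2.63. Sftpc gave a difference of -1.43, and its wild type scanner signals were 15126.4, 13404.7 and 15381.0 in control and 14676.4, 12323.5 and 18270.3 after LPS. Wild type arrays were tied at the ceiling there, so the size of that difference is limited by the scale.

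**Figure D4:**
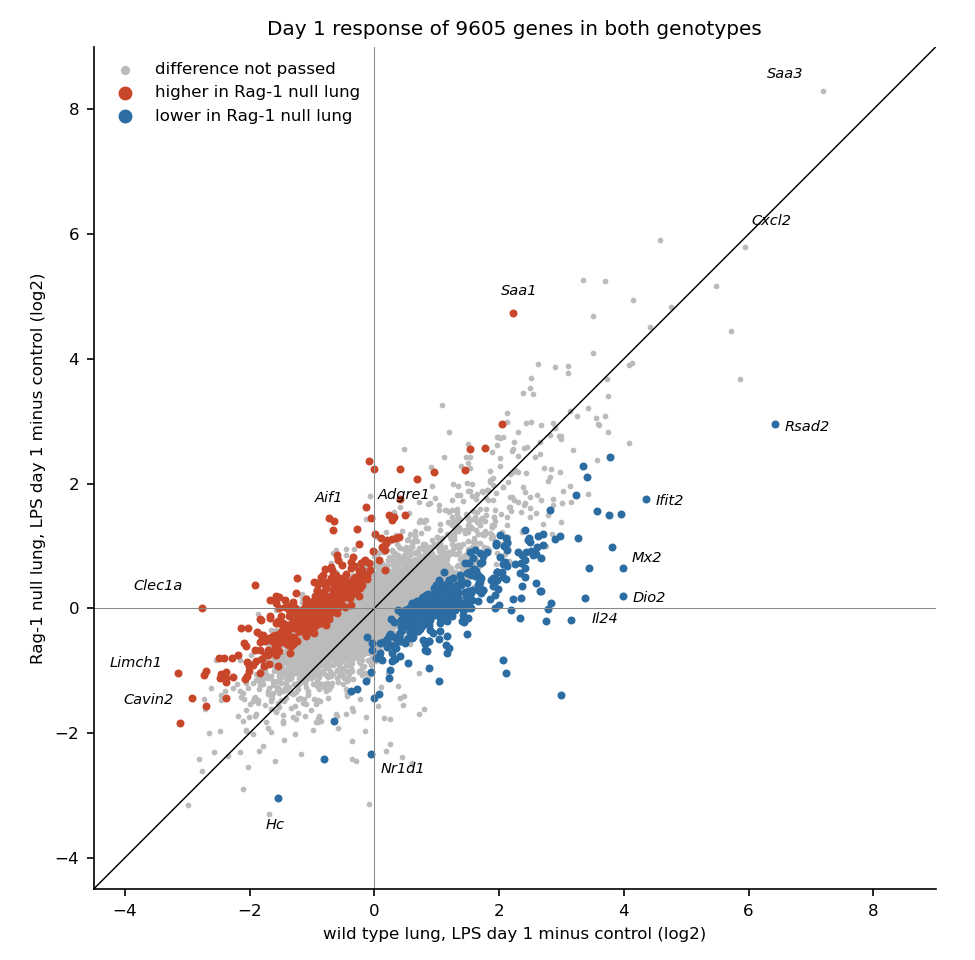
Log2 change from control to LPS day 1 in wild type lung (x axis) and in Rag-1 null lung (y axis) for 9605 genes, with the line of equal change and with genes whose difference passed in red (higher in Rag-1 null lung, 448) and blue (lower, 431). Rsad2, Ifit2, Mx2 and Dio2 lie far below the line, and Saa1, Aif1 and Clec1a lie above it.

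How far the changes had moved 3 days later was tested as LPS day 4 against LPS day 1 in Rag-1 null lung, a comparison that shares the 3 day 1 arrays with the one above, so its own values are given beside those of day 1 with no count of genes in common. At day 4, 445 genes were higher than at day 1 (4.63%) and 385 lower (4.01%), together 8.64%. By probe 1036 passed (7.65%), 573 higher (4.23%) and 463 lower (3.42%), and 635, 631, 662 and 582 passed without LPS day 1 replicate 1, 2 or 3 or LPS day 4 replicate 3. Saa1 averaged 6.09 at day 4 and 4.27 at day 10, a log2 change of -2.92 from day 1 to day 4 (adjusted p = 9.58e-05). Il4i1 averaged 7.73 and then 7.25 (-2.73 from day 1 to day 4). Ccl17 averaged 5.80 at day 4, below its control mean, and 7.58 at day 10 (-2.74). Selp changed by -1.15 from day 1 to day 4 (adjusted p = 0.019), while Saa3 averaged 13.83 at day 4 (adjusted p = 0.944) and 10.95 at day 10.

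Several interferon gamma targets and antigen presentation genes were higher at day 4 than at day 1. Cxcl9 averaged 11.53 at day 4 and 8.69 at day 10, a log2 change of 2.55 from day 1 to day 4 (adjusted p = 3.66e-04). Ifng, below background at day 1, averaged 6.25 at day 4 (1.78, adjusted p = 0.00111) and 4.32 at day 10. Its day 4 arrays were spread, at 4.92, 6.71 and 7.13, with replicate 1 near the floor. Ubd, a ubiquitin-like protein that interferon gamma induces, averaged 8.27 at day 4 (2.65), and Calhm6 8.95 (2.50). H2-DMa, which had fallen at day 1, averaged 8.20 at day 4 and 7.87 at day 10, both above control (2.24, adjusted p = 2.83e-07). Ccl21a averaged 8.36 at day 4 and 8.70 at day 10 (1.79). Fcgr4 and Aif1 went on rising, by 2.19 and 1.78 from day 1 to day 4. The probes of the core histone genes H2ac13, H2ac22 and H2ac24, which are near-identical and cannot be separated with confidence, fell at day 1 by 2.05, 2.00 and 2.02-fold and averaged 10.34, 9.77 and 10.52 at day 4. Each of these histone calls at day 1 was lost without control replicate 1, LPS replicate 2 or LPS replicate 3.

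Hc, Nr1d1, Bex2, Lgi3 and Sftpc, which fell at day 1, did not pass the test of change from day 1 to day 4. Hc averaged 6.27 at day 4 (adjusted p = 0.724) and 9.98 at day 10, where its control arrays had read 9.56 to 9.66. Nr1d1 averaged 4.89 at day 4 and 5.36 at day 10, still below its control arrays. Bex2, which had fallen 8.87-fold from 8.44, 8.85 and 8.40 to 5.80, 5.27 and 5.17, averaged 5.35 and 6.31. Lgi3 averaged 5.97 and 8.15, and Sftpc 13.09 and 13.93. Emp2 fell further, by 0.78 on the log2 scale from day 1 to day 4 (adjusted p = 6.80e-04), and averaged 10.42 at day 10. Differences between day 10 and control were not tested here.

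**Figure D5:**
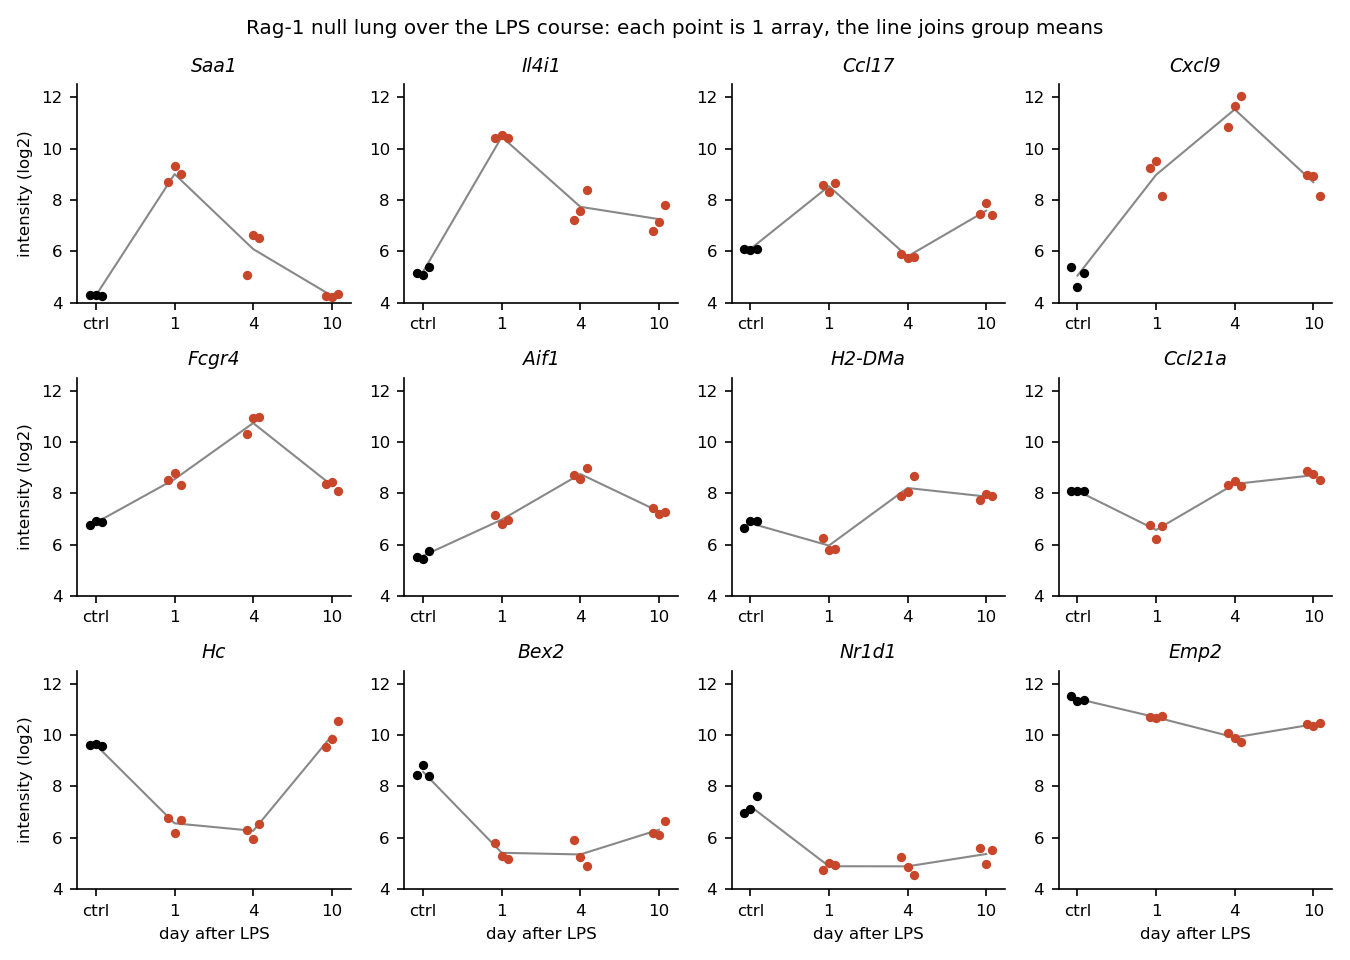
Normalized log2 intensity (y axis) of 12 genes in Rag-1 null lung under control conditions (ctrl) and at LPS day 1, 4 and 10 (x axis), with each array as a point and a line through the group means. Saa1, Il4i1 and Ccl17 peak at day 1, Cxcl9, Fcgr4, Aif1 and H2-DMa at day 4, and at day 10 Hc averages 9.98 and Nr1d1 5.36.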

How the data were processed

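Whole lung RNA of 24 samples was measured on Illumina beadchips, 3 per group in 8 groups. The authors deposited scanner output holding an average intensity and a detection score per probe and array, and a value table in log2. Detection scores are fractions near 1 for probes brighter than negative controls, per the file headers. Compared with the scanner signals, the deposited log2 table was the log2 intensity minus each array's mean over its 13029 listed probes, with no background correction or quantile step. Scanner columns were tied to samples by matching values, which differed by at most 5.4e-04 from a sample's own column and by at least 1.42 from any other. The title line above the scanner columns, not used here, named another sample for 22 of 24 arrays. No source used here gives the version of the scanner software.

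Intensities were background-corrected with normexp from detection p (1 minus the score), offset by 16, quantile normalized and taken to log2 with neqc in limma 3.58.1 (R 4.3.3). Normalized levels tie at the top, where the brightest probe reads 13.93 on every array. Probes with detection p below 0.05 in at least 3 arrays entered (13544), and the 8 group means were fitted over 24 arrays with eBayes (trend), with Benjamini-Hochberg adjustment over these probes and a threshold of 0.05. The 3 contrasts were LPS day 1 against control, its difference from wild type, and LPS day 4 against day 1. Symbols came from GEO's platform annotation: 11734 of the 13029 listed probes had 1 symbol and 1295 were not listed, and 11658 tested probes named 9605 genes, each taken by its brightest probe. A probe below background on every array of a group gives an "at least" fold, from the bright group's mean over the higher of the dim probe's signal and the dimmest detected signal. A ribosomal RNA probe annotated as a protein gene was set aside.

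Named genes were the 15 largest rises and falls with a gene symbol that passed, from each of 48 lists up to 4 members by smallest adjusted p, 8 genes per direction in the genotype difference, 6 per direction among day 1 calls for the change to day 4, and fixed anchors. The comparison and lists were chosen with earlier results of these data known. Replicate number is the slide, each slide holding 1 array of every group, and since groups keep 1 position across slides, effects of position and of group cannot be told apart. Same-numbered arrays of the 2 groups had deviations correlated at -0.058, 0.070 and 0.172, which does not pair them. On simulated data with 200 changed probes of 13544, the comparison recovered 20.5%, 82.5% and 99% of log2 changes of 0.5, 1 and 2. That simulation used independent normal noise and changed fewer probes than the 2287 that passed here. Its rates therefore do not give the sensitivity of the comparison on these data. Alternatives changed background correction, normalization, filter, prior, arrays fitted, array weights, slide as a block and probe. The number of arrays limits the precision. Promoters came from RefSeq (GRCm38.p6). Figures used matplotlib 3.10.9.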

Additional observations from a re-analysis of the deposited data

Results flagged for a closer look

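The response to LPS at day 1 differed between the genotypes, by a test of the difference itself, for 879 genes. All values here are log2 differences, the Rag-1 null change minus the wild type change. Of the 38 such genes that the rule for named genes picked, 26 kept the call whichever of the 12 arrays of this comparison was left out, and 12 lost it without at least 1 of them, namely Cd274, Ctsz, Emp2, Etv5, Hc, Il10, Ltbp4, Pcolce2, Plat, Rpl22, Tnip1 and Xcl1. All of these passed without wild type LPS day 1 replicate 1, the array that stood apart.

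Among genes lower in Rag-1 null lung, interferon-induced and cytokine genes were Rsad2 (-3.48), Mx2 (-3.34), Ifit2 (-2.60), Ccl5 (-2.01), Il24 (-3.22) and Il19 (-1.17). Il10 (-0.68), Cd274 (-1.35) and the NF-kB inhibitor Tnip1 (-1.05) were also lower. Dio2 (-3.79), the fibroblast protease Fap (-2.76), Fbxw10 (-1.93) and the probes named Sprr2e (-2.80) and Sprr2d (-1.94) rose in wild type lung and did not pass in Rag-1 null lung. The probes of Fap, Fbxw10, Sprr2e, Sprr2d, Il24, Il19 and Il10 were below background on all arrays of both Rag-1 null groups and of wild type control, and those of Dio2 and Mx2 on all wild type control arrays, so these fitted differences are not exact. Pdk4, a kinase that restrains pyruvate use, gave -1.53 and Plat -1.35. Genes that fell in Rag-1 null lung were Nr1d1 (-2.30), Hc (-1.51), Sftpc (-1.43), Pcolce2 (-1.61), Ltbp4 (-0.96) and Omd (-0.52).

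Among genes higher in Rag-1 null lung, Saa1 (2.50) and Saa2 (1.33) rose in both genotypes. Their probes were below background on all control arrays of both genotypes, so these 2 fitted differences are not exact. The macrophage genes Aif1 (2.05) and Adgre1 (1.51), the lysosomal protease gene Ctsz (0.86) and the chemokine Xcl1 (1.92) rose in Rag-1 null lung. The vascular and epithelial genes Clec1a (2.75), Limch1 (2.09), Icam2 (1.62), Cavin2 (1.48), Etv5 (0.95) and Emp2 (0.62) fell in wild type lung. Fcrl1 (1.65), a B cell receptor-like gene, fell in wild type lung and was below background on the 6 Rag-1 null arrays compared. Mrpl24 (1.32) of the mitochondrial ribosome and Ndufs8 (1.18) of respiratory complex I also fell in wild type lung and did not pass in Rag-1 null lung. Rpl22 (0.83) of the cytosolic ribosome fell in both genotypes, with log2 changes of -0.69 in Rag-1 null lung and -1.53 in wild type lung. Of genes named after their values were seen, the difference was -1.20 for Cx3cl1, 1.45 for Cxcl12 and -0.54 for Mpo, and whether single arrays decide these calls was not tested.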

How the results depend on the processing

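For Rag-1 null LPS day 1 against control, 2287 probes passed. The compared arrays alone gave 4319, the fit without the wild type LPS day 1 group 3445 and array weights 4906, and leaving out 1 array gave 1468 to 1906. For the genotype difference (1112 probes), centring gave 560, the compared arrays alone 506 and array weights 2497, and leaving out 1 array gave 723 to 2311. For day 4 against day 1 (1036 probes), the fit without the wild type LPS day 1 group gave 1869 and array weights 2700, and leaving out 1 array gave 582 to 962. The centred arrays also moved the split of that comparison to 44% higher, from 55.3%. With the slide as a fixed replicate block the 3 counts were 2373, 1097 and 1059. No value of a named gene reversed under these settings. Of 188 named genes that passed, 34 lost the call when 1 array was left out (29 of them without LPS replicate 2) and 154 kept it under every setting of the same probe. Another probe of the gene did not pass for 7 of these 154, so 147 kept it throughout. The cause was not tested. The ceiling and the offset compress changes of the brightest and dimmest probes.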
